A study of Rattus norvegicus with 56 samples.

Results

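The miR-23, miR-27 and miR-24 genes of the rat form a pair of clusters, and the 5p arms of both were followed in the hippocampus for 1 y after traumatic brain injury (TBI). The a cluster comprised rno-miR-23a-5p, rno-miR-27a-5p and rno-miR-24-2-5p, and the b cluster comprised rno-miR-23b-5p, rno-miR-27b-5p and rno-miR-24-1-5p (rno, for the rat, is left out from here on). The members were chosen by name as the rows of the count table that belong to these clusters, and 6 of 6 were present among 367 miRNAs. The counts included no 3p arm of these clusters and no miR-3074, on the strand opposite to miR-24-1, so these could not be analysed here.

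Hippocampal RNA came from 56 rats, of which 28 received fluid percussion injury, a mixed diffuse and focal model in which a pressure pulse is delivered to the exposed dura, and 28 received sham surgery without the pulse. Tissue was taken 24 h, 2 w, 1 m, 2 m, 3 m, 6 m or 1 y after surgery, with 4 TBI and 4 sham rats at each of the 7 intervals and 1 small RNA library per rat. The strain, sex and age of the rats are not given in the sources used here, and no rat carried a transgene or drug treatment that the labels name. Intervals differ in the age of the rats, in time since surgery and in any preparation batch, which cannot be told apart, so TBI was compared with sham within each interval.

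MicroRNAs are short RNAs that lower the output of messenger RNAs whose sites pair with the seed, bases 2 to 8 of the miRNA. Each hairpin precursor gives a 5p and a 3p arm, and in these clusters the 3p arm is usually the one loaded for repression, so the 5p arms measured here are the ones textbooks call passenger strands. The a cluster is transcribed as its own primary transcript, whereas the b cluster lies within the Aopep gene, which encodes an aminopeptidase, and on the same strand. The clusters are known from blood vessel endothelium, from myeloid blood cell differentiation and, for miR-27, from fat cell differentiation, and in the injured brain miR-23a and miR-27a have been studied in neuronal death.

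The sequences are shown because they decide how far the arms of the clusters can be told apart by sequencing. RefSeq (assembly GRCr8) held mature entries for 5 of the 6 members, all on the minus strand, and capitals mark the seed. The a-cluster arms were miR-27a-5p at chr19:40859655-40859676 and miR-24-2-5p at chr19:40859517-40859538, with miR-23a-5p named only. The b-cluster arms were miR-23b-5p at chr17:1819442-1819462, miR-27b-5p at chr17:1819202-1819225 and miR-24-1-5p at chr17:1818710-1818731.
miR-27a-5p: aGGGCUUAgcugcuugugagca
miR-27b-5p: aGAGCUUAgcugauuggugaacag
miR-24-2-5p: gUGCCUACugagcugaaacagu
miR-24-1-5p: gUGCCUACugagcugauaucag
miR-23b-5p: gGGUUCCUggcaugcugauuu

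The miR-24 arms shared their seed and their first 16 bases and differed by an edit distance of 3, all of it towards the 3′ end. Reads that stop early in these arms fit both, and how such reads were assigned is not given in the sources used here, so the split between miR-24-2-5p and miR-24-1-5p is uncertain to that degree. The miR-27 arms were easier to separate, with an edit distance of 5 and different seeds. The 3p arms are closer than either, at an edit distance of 1 between miR-27a-3p and miR-27b-3p and of 0 between the miR-24-3p copies.

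Library totals ran from 2083604 to 12468979 miRNA reads, except that TBI 2 m replicate 1 held 69628. On the scale of counts per 1000000 reads (CPM) after TMM scaling, 3 reads equalled 0.217 CPM in the library with the lowest such floor, 1.58 CPM in the one with the second highest and 34.4 CPM in the shallowest, and these floors cover counting error only, since the reads carry no molecular identifiers. As a check of the tissue, miR-9a-5p, a miRNA of the nervous system, was the most abundant of the table, and neuronal miR-218a-5p ranked 7. Of the other neuronal 5p arms listed, miR-129, miR-132 and miR-124 ranked 21, 41 and 100 of 367. The arms of miR-137 and miR-128-1 ranked 171 and 178, so the list was not abundant throughout. In whole tissue, fewer cells of a type and less RNA per cell cannot be told apart.

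The 6 arms together took 0.0587 to 0.110% of the reads in a library, with a median of 0.0749%. Levels are given as CPM on a single scale over the 56 libraries, which counts reads of a mature arm and needs no correction for length at 21 to 24 bases. miR-24-2-5p was the most abundant member, with a median of 531.7 CPM and a range of 394.8 to 838.4. miR-24-1-5p followed at a median of 167.3 CPM (106.7 to 244.1), then miR-27b-5p at 34.7 (23.0 to 54.2) and miR-27a-5p at 17.7 (9.79 to 44.3). The miR-23 arms were the scarcest of each cluster: miR-23b-5p had a median of 4.24 CPM (0 to 7.002) and miR-23a-5p one of 0.177 CPM (0 to 1.25). The lowest values of miR-27b-5p and miR-23b-5p came from the shallowest library, TBI 2 m replicate 1, with 2 and 0 reads. Without it the lowest were 24.8 and 2.69 CPM.

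The clusters differed in composition. miR-24-2-5p made up a median of 97.0% of a-cluster reads and miR-27a-5p 3.01%. In the b cluster, miR-24-1-5p made up 81.3%, miR-27b-5p 16.9% and miR-23b-5p 2.14%. Summed reads of the a cluster exceeded those of the b cluster in every library, at a median ratio of 2.81 (1.86 to 3.69), and the excess lay in the miR-24 pair. The largest ratio came from the shallowest library, TBI 2 m replicate 1, and without it the maximum was 3.51. The ratio of miR-24-2-5p to miR-24-1-5p was above 1 in 56 of 56 libraries, at a median of 3.40, whereas miR-27a-5p exceeded miR-27b-5p in 1 of 56, at a median ratio of 0.505.

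**Figure D1:**
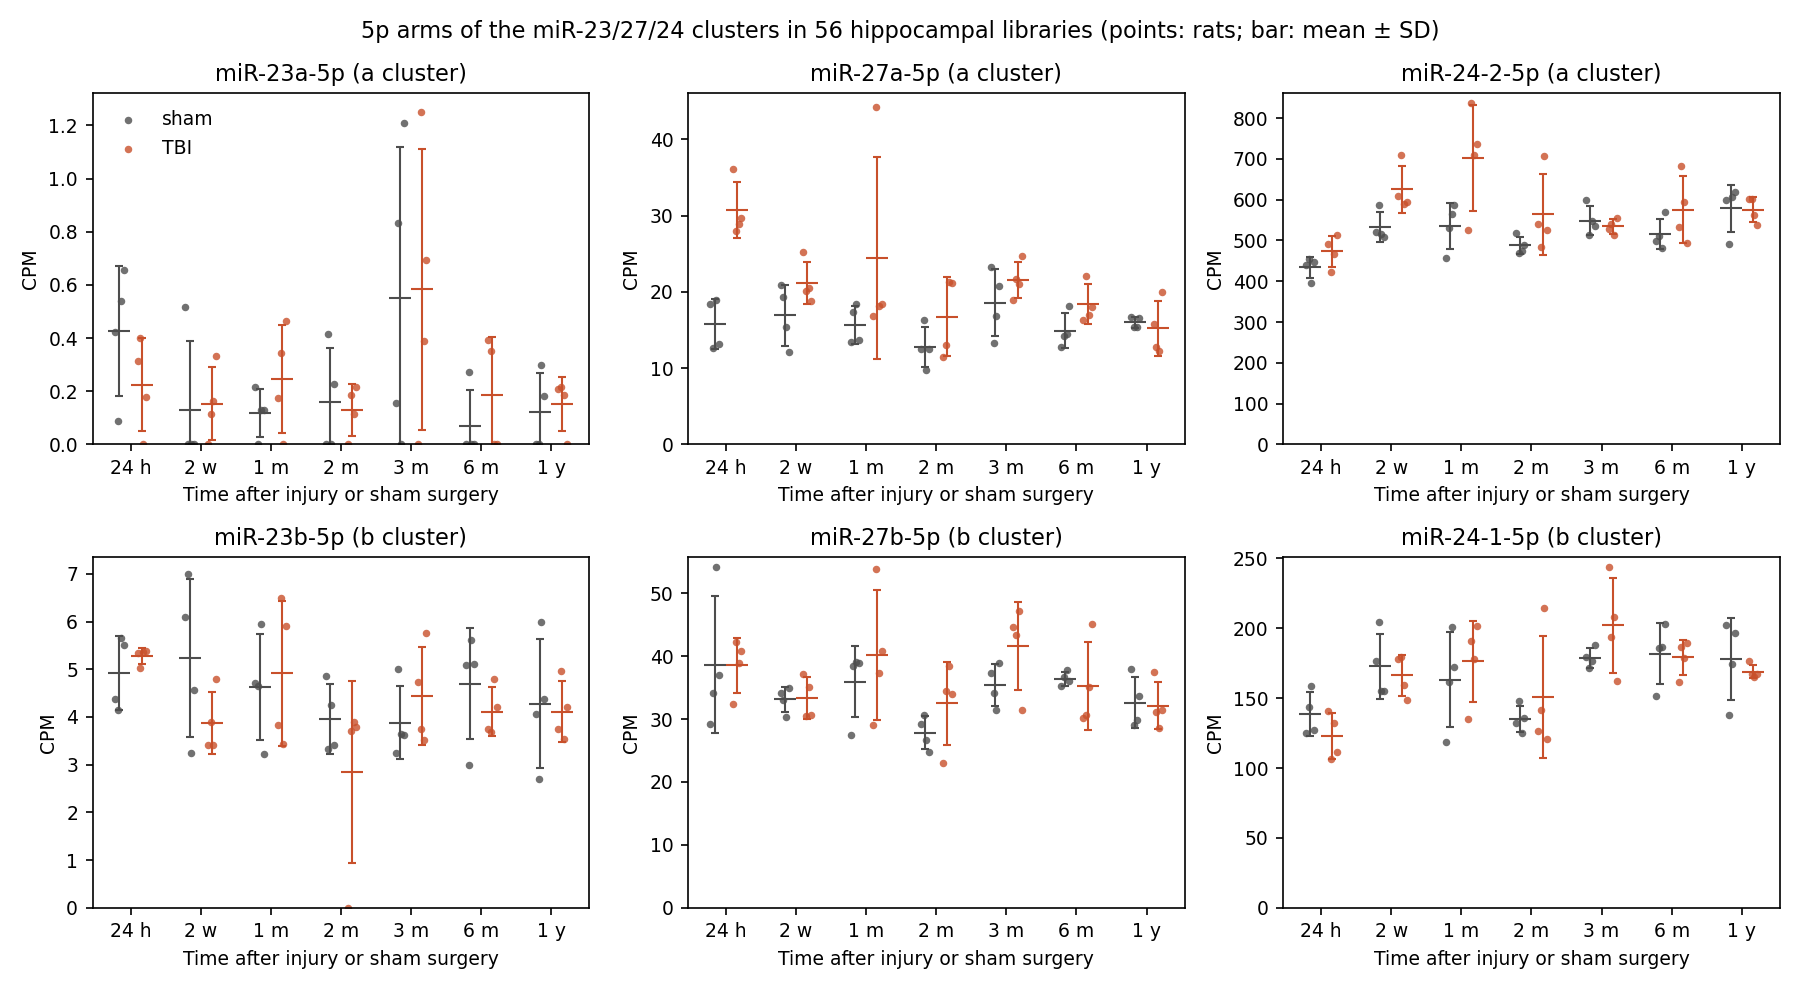
CPM (y axis, linear from 0, scale set per panel) of the 6 arms against time after surgery, with a point per rat, sham in grey and TBI in orange, and a bar for the mean ± SD of 4 rats. The 4 TBI rats at 24 h sit between 28.02 and 36.1 CPM of miR-27a-5p, above the highest sham rat at 18.9.

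miR-23a-5p was too scarce to compare. It had 0 to 5 reads per library and 0 in 20 of 56, with 36 reads in all over 28 TBI libraries and 38 over 28 sham libraries, and it failed the filter on low counts in every comparison. A difference in this arm was not detectable at this depth. The other 5 members passed the filter in every comparison, miR-23b-5p with 0 to 65 reads per library.

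At 24 h after injury miR-27a-5p was about double its sham level, and no other member passed the test. Its levels were 36.1, 28.02, 29.0 and 29.8 CPM in TBI replicates 1 to 4 and 18.3, 12.7, 18.9 and 13.1 CPM in sham replicates 1 to 4. The groups did not overlap, with every TBI rat above every sham rat. The means were 30.7 ± 3.67 and 15.8 ± 3.31 CPM (SD, n = 4 each), a log2 fold change of 1.00 (SE 0.19, adjusted p = 0.0247 by edgeR's quasi-likelihood test, rank 3 of 233). Thus 1 of 5 tested members was called against 1.72% of all miRNAs tested, and 1 of 5 had groups that did not overlap against 4.29%. The call was lost in 4 of the 8 fits that left out 1 rat (without sham 24 h replicate 2 or TBI 24 h replicate 1, 3 or 4), with adjusted p up to 0.0888 and log2 fold changes of 0.86 to 1.09 over the 8.

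Its b-cluster counterpart showed no such difference at 24 h. miR-27b-5p stood at 32.3, 42.2, 38.9 and 40.9 CPM in the TBI rats and at 29.2, 34.2, 54.2 and 37.0 CPM in the sham rats, with overlapping groups and sham replicate 3 highest of all. Its log2 fold change was 0.06 (SE 0.22, adjusted p = 0.980), and its sign turned without sham 24 h replicate 1 (-0.051). For the miR-24 pair at 24 h, miR-24-2-5p had a log2 fold change of 0.13 (SE 0.12) and miR-24-1-5p one of -0.18 (SE 0.16), neither past the threshold. miR-23b-5p had a log2 fold change of 0.15 (SE 0.21). With a rat left out these ran from 0.08 to 0.19 for miR-24-2-5p, from -0.24 to -0.11 for miR-24-1-5p and from 0.02 to 0.25 for miR-23b-5p, and none passed the threshold.

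At 2 w the member with separated groups was miR-24-2-5p, the abundant arm of the a cluster. It stood at 608.0, 709.8, 588.3 and 594.5 CPM in TBI replicates 1 to 4 and at 520.6, 588.2, 515.4 and 508.6 CPM in sham replicates 1 to 4. The lowest TBI rat lay just above the highest sham rat, by less than 1 CPM, so the separation rests on a narrow margin. The log2 fold change was 0.25 (SE 0.08, adjusted p = 0.215), and 0 of 5 members were called against 0% of all miRNAs, while 1 of 5 did not overlap against 5.29%. miR-27a-5p had a log2 fold change of 0.26 (SE 0.18) and overlapped, from 18.8 to 25.2 CPM after TBI and 12.1 to 20.9 in sham rats.

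At 1 m both a-cluster arms had their widest spread among TBI rats. miR-27a-5p stood at 16.9, 44.3, 18.2 and 18.5 CPM in TBI replicates 1 to 4 and at 13.4, 17.3, 18.4 and 13.7 CPM in sham replicates 1 to 4. miR-24-2-5p stood at 526.2, 838.4, 708.9 and 737.4 CPM after TBI and at 457.3, 531.4, 564.3 and 585.9 CPM in sham rats. TBI replicate 2 was the highest of the 8 rats for both arms, and also for miR-27b-5p at 53.9 CPM and miR-23b-5p at 6.50 CPM. The log2 fold changes were 0.69 (SE 0.34, adjusted p = 0.297) for miR-27a-5p and 0.45 (SE 0.19, adjusted p = 0.238) for miR-24-2-5p, and without that rat they were 0.21 and 0.30. Of the 5 members 0 were called against 0.417% of all miRNAs (1 of 240, and 1 to 7 with a rat left out), and 0 had separated groups against 10%.

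From 2 m onwards no member was called or had separated groups. The shares of all miRNAs called were 0% at 2 m, 3 m, 6 m and 1 y, and the shares with separated groups were 5.08%, 4.09%, 1.34% and 5.33%. miR-27a-5p had log2 fold changes of 0.51 (SE 0.25) at 2 m, 0.26 (SE 0.20) at 3 m, 0.33 (SE 0.18) at 6 m and -0.07 (SE 0.18) at 1 y. At 1 y its group means were 15.2 ± 3.57 CPM after TBI and 16.02 ± 0.705 CPM in sham rats. The unadjusted p was under 0.05 for 1 of 5 members each at 24 h, 2 w and 1 m, where 13 of 233, 21 of 227 and 43 of 240 miRNAs had such a p, so that the share at 1 m was near that of all miRNAs. At the later intervals it was under 0.05 for 0 members and for 10 to 20 of all miRNAs. Under DESeq2 the members called were likewise miR-27a-5p at 24 h and 0 at each other interval.

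Averaged over the 7 intervals, both tested a-cluster arms were higher after TBI and the 3 b-cluster arms did not pass the test, while miR-23a-5p could not be tested. The TBI effect averaged over the 7 intervals, fitted to the 56 libraries together, was a log2 fold change of 0.41 for miR-27a-5p (SE 0.09, adjusted p = 0.00123, rank 5 of 244) and 0.15 for miR-24-2-5p (SE 0.04, adjusted p = 0.0221, rank 7). The fitted log2 fold change was above 0 in 6 of 7 intervals for each, with 1 y the exception. For miR-24-2-5p the value at 3 m was 0.01 (SE 0.09), and its mean CPM there was lower after TBI, at 534.5 ± 17.5 against 549.0 ± 36.1 (SD, n = 4 each). The b-cluster values were 0.10 for miR-27b-5p (SE 0.06, adjusted p = 0.506), 0.02 for miR-24-1-5p (SE 0.06, adjusted p = 0.906) and -0.05 for miR-23b-5p (SE 0.09, adjusted p = 0.875). Thus 2 of 2 tested a-cluster members and 0 of 3 b-cluster members were called, against 4.92% of all miRNAs (12 of 244, and 7 to 20 with a rat left out), whose median log2 fold change was -0.01. Members' medians were 0.28 for the a cluster and 0.02 for the b cluster.

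Neither call held when the average was taken over the 6 intervals after 24 h, in the same fit of 56 libraries. The log2 fold changes were then 0.31 for miR-27a-5p (adjusted p = 0.0998) and 0.16 for miR-24-2-5p (adjusted p = 0.0623), by the quasi-likelihood test. For miR-24-2-5p the estimate was no lower than over the 7 intervals, at 0.15. This alternative, with 0 members called, was chosen after seeing the data. miR-27a-5p stayed called in each of 56 fits without 1 rat, whereas miR-24-2-5p lost its call in 8 of them, with adjusted p up to 0.0943, which was reached without TBI 1 m replicate 2.

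**Figure D2:**
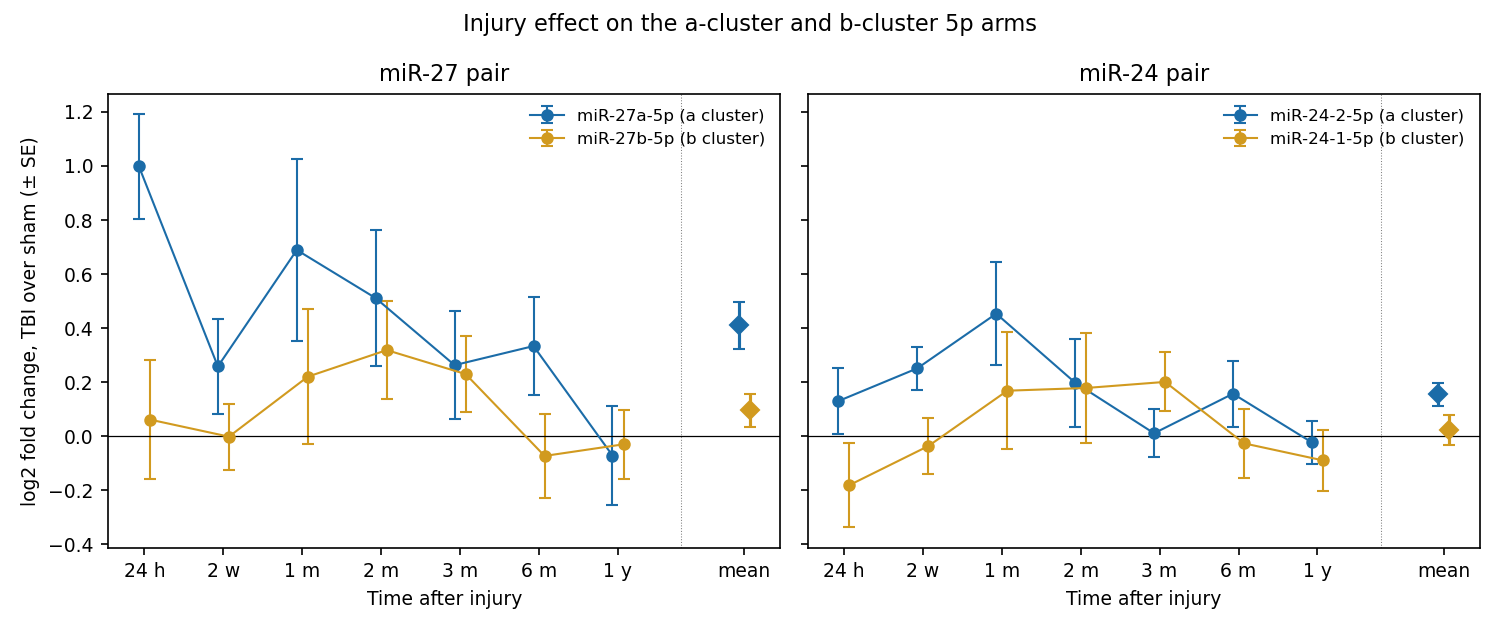
The log2 fold change of TBI over sham ± SE (y axis) for the miR-27 and miR-24 pairs at each interval and averaged over the 7 intervals (diamonds), with the a cluster in blue and the b cluster in yellow. The a-cluster means lie at 0.41 and 0.15 and the b-cluster means at 0.10 and 0.02, and all 4 arms are near or below 0 at 1 y.

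Whether the clusters differed was tested within each library, as the log2 ratio of the a-cluster arm to its b-cluster counterpart, each count raised by 0.5, which needs no scaling between libraries. At 24 h the log2 ratio of miR-27a-5p to miR-27b-5p was 0.16, -0.59, -0.42 and -0.46 in TBI replicates 1 to 4 and -0.67, -1.43, -1.52 and -1.49 in sham replicates 1 to 4. The groups did not overlap, although sham replicate 1 came close to TBI replicate 2. The difference was 0.95 (exact permutation test, two-sided, p = 0.0286, the smallest that 4 against 4 rats allows), with an adjusted p of 0.3 over the 21 tests of 3 pairs at 7 intervals.

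At 2 w the log2 ratio of miR-24-2-5p to miR-24-1-5p was 1.77, 1.98, 1.88 and 2.00 after TBI and 1.56, 1.53, 1.73 and 1.71 in sham rats. Again the groups did not overlap, and the difference was 0.28 (exact permutation p = 0.0286, adjusted p = 0.3). These were the 2 separated comparisons, and 0 of the 21 passed the correction. With 21 tests, a pair of p-values at the smallest that 4 against 4 rats allow cannot pass it.

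Averaged over the 7 intervals, the a-cluster arm gained on the b-cluster arm after TBI in both pairs that could be measured. The log2 ratio of miR-27a-5p to miR-27b-5p was higher after TBI by 0.32 (SE 0.08, p = 0.00062 in a permutation test of 100000 resamples within intervals, adjusted p = 0.00186 over 3 pairs) and was higher in 6 of 7 intervals. That of miR-24-2-5p to miR-24-1-5p was higher by 0.13 (SE 0.04, permutation p = 0.00786, adjusted p = 0.0118), also in 6 of 7 intervals, the exception being 3 m at -0.20. Over the 6 intervals after 24 h the differences were 0.21 and 0.10, each with a permutation adjusted p of 0.0406. Leaving out any 1 rat gave 0.29 to 0.34 for the miR-27 pair and 0.12 to 0.15 for the miR-24 pair, with permutation adjusted p up to 0.00543 and 0.0331. For miR-23a-5p and miR-23b-5p the ratio is set largely by the added 0.5, since miR-23a-5p had 0 to 5 reads, and its permutation adjusted p was 0.0900.

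**Figure D3:**
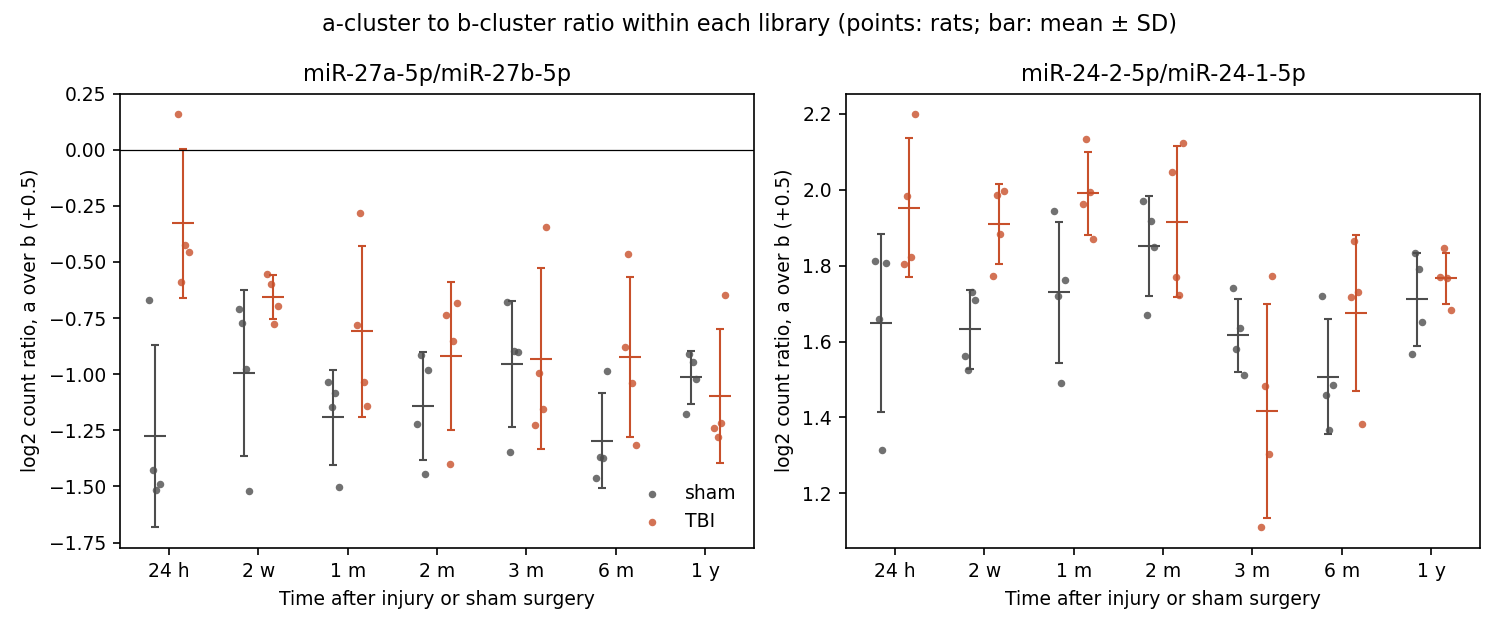
The log2 ratio of a-cluster to b-cluster reads (y axis, each count plus 0.5; 0 marks equal reads) within each library for the miR-27 pair (left) and the miR-24 pair (right), with a point per rat and a bar for the mean ± SD of 4 rats. TBI and sham rats separate at 24 h on the left and at 2 w on the right, and the mean differences over the 7 intervals are 0.32 and 0.13.

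The injury effect was not shown to change with time in any member. A test of whether the TBI effect differed between the 7 intervals called 0 of 5 members against 2.87% of all miRNAs by edgeR, with 0 members at an unadjusted p under 0.05 and 0 called by DESeq2. miR-27a-5p came nearest, with an unadjusted p of 0.0577 and an adjusted p of 0.327 in that fit across all miRNAs. The order of its 14 group means ran from sham 2 m (12.8 CPM) to TBI 24 h (30.7 CPM), and 0 of the 13 steps between neighbouring groups exceeded the larger of their SDs.

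In sham rats the level of miR-24-2-5p differed between intervals, from 433.9 ± 26.7 CPM at 24 h to 578.9 ± 58.4 at 1 y (SD, n = 4 each), with an adjusted p of 0.0224. The other 4 tested members were not called, so 1 of 5 passed against 27.1% of all miRNAs. miR-24-1-5p ran from 135.2 ± 9.38 CPM at 2 m to 181.9 ± 21.8 at 6 m (adjusted p = 0.0569). The lowest sham mean of miR-27b-5p, 27.8 ± 2.62 CPM, was also at 2 m, with 38.6 ± 10.9 CPM at 24 h the highest (adjusted p = 0.229).

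Across the 56 libraries the miR-24 paralogues, which come from different clusters, were the most alike of the members, as a description over libraries that share injury, interval and scaling. Spearman's rho of log2 CPM was 0.63 between miR-24-2-5p and miR-24-1-5p and 0.48 between miR-27a-5p and miR-27b-5p. Within clusters it was 0.27 for miR-27a-5p with miR-24-2-5p, 0.47 for miR-27b-5p with miR-24-1-5p, 0.24 for miR-27b-5p with miR-23b-5p and 0.05 for miR-23b-5p with miR-24-1-5p. With group means removed, the miR-27 paralogues stood at 0.38, below miR-27b-5p with miR-24-1-5p at 0.51, so the closer likeness of paralogues than of cluster partners was not general. Over all 29646 pairs of 244 miRNAs the median was 0.003 and the 90th percentile 0.32. For the miR-24 pair, reads that fit both arms would enter this likeness too, and their part was not tested.

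**Figure D4:**
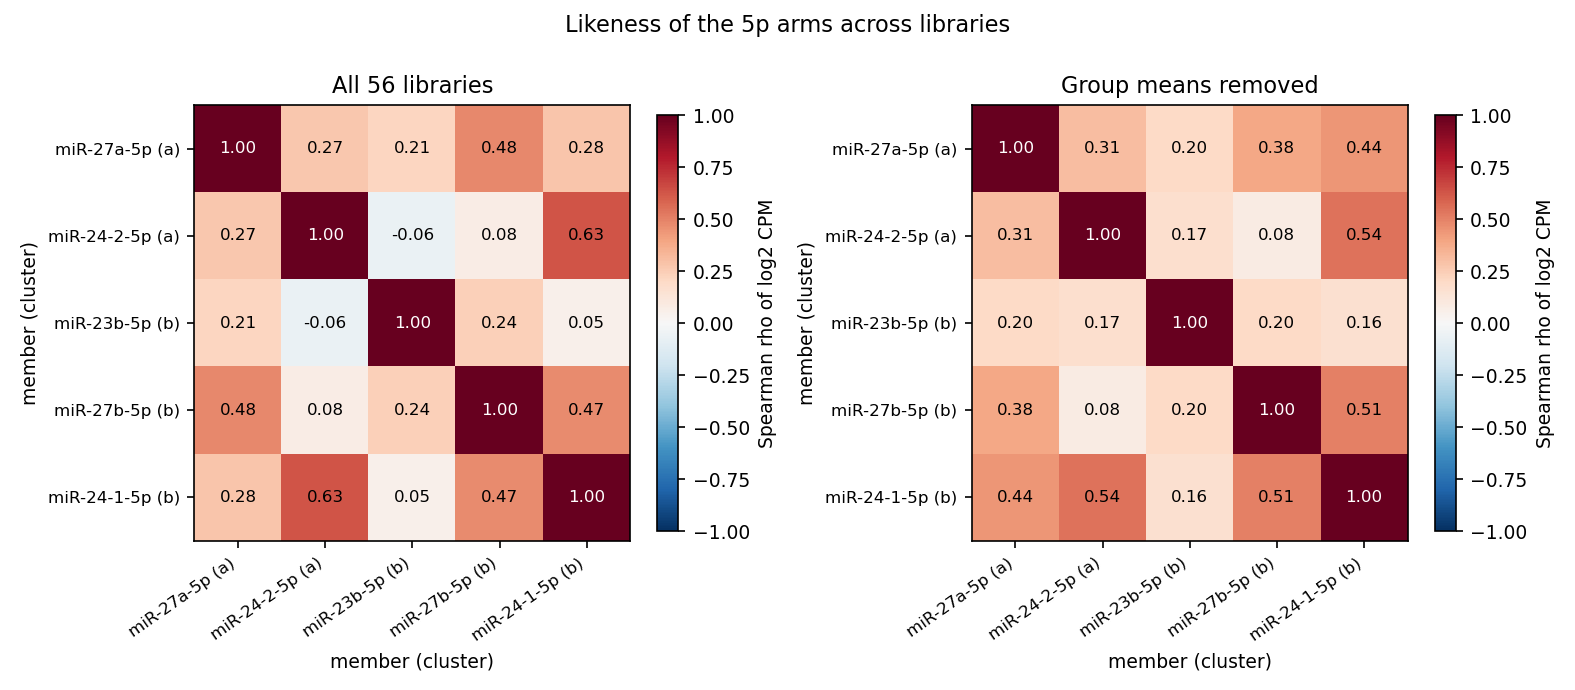
Spearman's rho of log2 CPM (colour and printed value) between the 5 arms above the count filter over 56 libraries, as measured (left) and with each group's mean removed (right). The miR-24 paralogues stand at 0.63 on the left and 0.54 on the right, the highest of the off-diagonal values in both.

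Among all 243 other miRNAs, the one most like miR-27a-5p over the 56 libraries was miR-155-5p, an inflammation-induced miRNA of leukocytes and microglia, at a rho of 0.61. With group means removed that rho was 0.12, so the likeness lay between groups of rats and not among rats of a group. miR-27b-5p came next at 0.48, and then miR-142-5p, made by blood cells, at 0.47 and -0.16 with group means removed. The nearest to miR-24-2-5p after miR-24-1-5p were miR-148b-5p (0.51) and miR-99a-5p (0.50). For miR-27b-5p they were miR-338-5p (0.55), which oligodendrocytes make, miR-204-5p (0.53), abundant in choroid plexus, and miR-342-5p (0.51). With group means removed these stood at 0.47, 0.42 and 0.62, and miR-342-5p then ranked 1 of 243. miR-24-1-5p was nearest, after its paralogue, to miR-325-5p (0.62) and miR-301a-5p (0.58), and miR-23b-5p to miR-382-5p (0.42), miR-1224 (0.39) and miR-298-5p (0.34).

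Markers of other cell types were read beside the a-cluster arms. Of the 5 listed 5p arms (miR-142, miR-223, miR-150, miR-155 and miR-146a), 1 of 4 tested was called at 24 h, miR-155-5p, against 4 of 233 miRNAs, and 4 of 5 were called, all up, for the average over the 7 intervals, against 12 of 244. Their summed level at 24 h was 2027 to 2874 CPM in TBI rats and 1857 to 3276 CPM in sham rats, at 1 m it was 2609 to 3332 and 1555 to 1741 CPM, and at 2 m it was 1994 to 2814 and 1512 to 1674 CPM. The groups thus overlapped in this sum at 24 h and were apart at 1 m and 2 m. They also overlapped at 2 w, at 1865 to 3458 CPM in TBI rats and 1561 to 1891 CPM in sham rats, and at 3 m, 6 m and 1 y. The sum was set largely by miR-150-5p and miR-146a-5p, at means of 990 and 943 CPM, while miR-155-5p averaged 13.3 CPM. The median log2 fold change of the tested arms of this list was 0.49 at 24 h, 1.02 at 2 w, 0.90 at 1 m and 0.67 at 2 m. At 3 m, 6 m and 1 y it was 0.36, 0.36 and -0.09. None of the list was at 0 in all libraries. The vessel wall list (miR-126a, miR-143 and miR-145) had 0 of 3 called at 24 h and for the average, at 966 to 1410 CPM after TBI and 861 to 1303 CPM in sham rats at 24 h, and the neuronal list had 0 of 7 called in both. The red blood cell (2 tested), oligodendrocyte (2 tested) and choroid plexus (3 tested) lists had 0 called in both. The part of these cells in the miR-27a-5p and miR-24-2-5p differences was not tested.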

How the data were processed

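Small RNA libraries (NEBNext, size selected) were made from rat hippocampal RNA and sequenced on a NextSeq. Per the labels, reads were demultiplexed with bcl2fastq 2.20.0.422. The authors quantified mature miRNAs of miRBase with miRDeep2, and the deposited table holds raw counts for 367 miRNAs, 34 of which had no reads. Handling of reads that fit several miRNAs is not given in the sources used here. The labels gave each of 56 rats its group, and 84 pairs of replicates all differed beyond sampling noise.

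Counts were tested with edgeR 4.0.16 (R 4.3.3; filterByExpr, TMM, quasi-likelihood, Benjamini-Hochberg adjustment over all miRNAs tested, threshold 0.05), within each interval and over all 56 libraries for the average TBI effect, its difference between intervals and the sham time course. CPM used TMM over the 56 libraries, with a prior count of 2 for log2 CPM. Paralogue ratios used counts plus 0.5 and permutation tests. DESeq2 1.42.0, other scalings, filters and left-out rats were alternatives. On simulated 24 h counts with 60 of 231 miRNAs changed, 24 of 30 changes of log2 1 and 27 of 30 of log2 2 were recovered, with 5 false calls. Far fewer, 1.72%, were called in the data at 24 h, so these recovery rates need not hold there. All 6 members are described, and the miRNAs named beside them are the 3 with the highest Spearman's rho to each. The members and marker lists were chosen with earlier results of these data known.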

Additional observations from a re-analysis of the deposited data

Results flagged for a closer look

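In groups of 4 rats, a value was marked when it lay far from the other 3 relative to the group's range (Dixon's test at 95%). Of the 70 groups of the 5 arms above the count filter, 7 held such a value, where chance alone gives 1 in 20, or 3.5. For miR-27a-5p, TBI 1 m replicate 2 stood at 44.3 CPM against 16.9 to 18.5 in the other 3 rats. For miR-24-2-5p, sham 2 w replicate 2 stood at 588.2 CPM against 508.6 to 520.6, TBI 2 w replicate 2 at 709.8 against 588.3 to 608.0, and sham 1 y replicate 2 at 492.0 against 600.0 to 618.1. For miR-23b-5p, TBI 24 h replicate 2 stood at 5.02 CPM against 5.34 to 5.38, and TBI 2 m replicate 1 at 0 against 3.70 to 3.89, in the library whose floor of 3 reads is 34.4 CPM. For miR-27b-5p, sham 1 m replicate 1 stood at 27.5 CPM against 38.4 to 39.0.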

How the results depend on the processing

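Over 243 checks under another scaling, filter, test or set of libraries, 233 kept their direction and side of the threshold. Among them were ratio tests at single intervals, which could hardly change side, since a pair of smallest p-values cannot pass the correction. The tally therefore says little about how firm the results are. At 24 h the members called were 0 to 1 with a rat left out. At 1 m they were 2 with all 56 libraries in a single fit (miR-27a-5p, adjusted p = 0.0337, and miR-24-2-5p, 0.0106), a fit that called 45 of all miRNAs against 1 within the interval. For the average effect they were 1 with at least 10 counts in every library, where miR-27a-5p was not tested, 0 over the 6 intervals after 24 h, and 1 to 2 with a rat left out. The rats whose absence ended the miR-24-2-5p call were TBI 24 h replicate 4, TBI 2 w replicate 2, sham 1 m replicate 3, TBI 1 m replicate 2, TBI 2 m replicate 3, sham 3 m replicates 1 and 2 and sham 1 y replicate 2. In sham rats over time they were 2 with DESeq2's size factors, no filter, the filter of 10 counts or DESeq2. The cause of these changes was not tested. The log2 ratio of miR-23a-5p to miR-23b-5p, at 0.54 over the 7 intervals, was 0.73 over the 6 later ones (permutation adjusted p = 0.0406) and 0.39 to 0.63 with a rat left out, on 0 to 5 reads of miR-23a-5p. With a rat left out the sign turned for miR-27b-5p at 24 h (-0.051 to 0.23), the average effect on miR-24-1-5p (-0.015 to 0.039), the miR-24 ratio at 2 m (-0.0050 to 0.13) and the miR-27 ratio at 3 m (-0.17 to 0.12). Over all miRNAs, calls at 2 w were 0 by the quasi-likelihood test and up to 8 by the likelihood ratio test, and for the average effect 3 without 24 h against 12. Library names of the 1 y rats share the numbers 17 to 20 between groups, but same-numbered rats did not all deviate together (r from 0.024 to 0.41 over 225 miRNAs). A replicate block on these numbers at 1 y left 0 members called. The fit without the block had already called 0 of 225 miRNAs, so the block decides nothing about a batch. What the numbers stand for is not given in the sources used here. At the other intervals the numbers in the library names recur only within a group. Each number lay within a single group there, so TBI and sham could not be compared within a block on them. That recurrence, and any split of the libraries that it marks, was not examined. The depth limits miR-23a-5p throughout. In TBI 2 m replicate 1 it also limits miR-23b-5p, miR-27a-5p and miR-27b-5p, with 0, 1 and 2 reads, and miR-24-1-5p had 11 there.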
